A study of Homo sapiens with 19 samples.

Results

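Wild-type fibrillarin (FBL) was put back into FBL knockdown cells, and the ribose methylation of their ribosomal RNA (rRNA) was set against that of control knockdown cells with an empty vector, to see which sites stayed below control. The comparison took 4 of the 19 RiboMethSeq libraries of the study, 2 of each group by their sample titles, and used all 120 rRNA sites that the authors scored. Of these, 18S rRNA holds 47, 28S rRNA 71 and 5.8S rRNA 2. All libraries were made from the acute myeloid leukaemia line Kasumi-1, grown with 20% serum. The 4 libraries differed in 2 ways at once, the knockdown and the vector. Cells with wild-type FBL carried the FBL knockdown and the FBL vector. Control cells carried a control knockdown and an empty vector. Both were given doxycycline at 100 ng/ml. For orientation, values are also given from FBL knockdown (KD) cells with the empty vector, and from FBL KD and control KD cells with no vector, 2 libraries each, all with the same doxycycline. The other libraries of the study held 2 FBL mutants and SNORD127 knockout clones.

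FBL is the enzyme that transfers the methyl group in box C/D small nucleolar ribonucleoprotein particles. In each particle a guide RNA, named SNORD with a number, pairs with rRNA and so selects the nucleotide whose 2′ hydroxyl is methylated, while NOP56, NOP58 and SNU13 form the rest of the particle. Most human guide RNAs are processed from introns of host genes, many of which code for ribosomal proteins or are non-coding hosts such as GAS5 and SNHG1. Some rRNA sites are methylated in nearly every ribosome of a cell and others in only a part of them.

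The measure was score C, which runs between 0 and 1. It is 1 minus the number of fragment ends read next to the site, divided by a weighted mean of the numbers at the 6 positions on either side. Alkali cuts poorly beside a methylated ribose, so a score near 1 means few ends at the site, and a fall in score means that ends appeared there. Sites are named by rRNA and position as the authors' tables give them. These are positions within the rRNA, and no genome coordinates are used. The libraries with wild-type FBL held 11627924 and 14054606 end counts, against 11576861 and 13278107 in control KD with empty vector. The 95% half-width from counting alone had a median of 0.014 score units over the sites of these 4 libraries and reached 0.366. The tables hold rRNA ends only, so neither the depth of the knockdown nor the amount of FBL put back was measured here. The labels do not say whether replicates came from separate cultures, so the tests measure the spread between libraries, which may be technical. One control library, replicate 2 with the empty vector, was unlike the others. It had 20.79% of its ends at position 15 of 28S rRNA, where the most used position of the other libraries took 2.56% to 4.9%. Values without it are given beside the main count and the sites described below that turned on it most.

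Methylation stayed below control at 35 of the 120 sites with wild-type FBL, which is the whole-table rate of 29.2%, and was above control at 1 site (0.833%; limma, Benjamini-Hochberg adjusted p under 0.05 over 120 sites). At 45 sites lower and 1 higher the unadjusted p was under 0.05. Without replicate 2 of control KD with empty vector 28 sites were lower, 26 of them among the 35. Of all differences 97 lay below 0, 20 above 0 and 3 at 0, with a median of −0.028. Among the 35 called sites the median was −0.083, and the smallest was −0.029. The called differences were uneven in size. At 7 sites (5.83%) the called deficit was at least 0.3, at 10 (8.33%) at least 0.2, at 14 (11.7%) at least 0.1 and at 27 (22.5%) at least 0.05. Both libraries with wild-type FBL lay below both control libraries at 72 sites (60.0%), all 35 called sites among them, and above both at 5 sites (4.17%).

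The mean score over all sites was 0.8079 and 0.8111 with wild-type FBL, against 0.8637 and 0.872 in control KD with empty vector. Neither group overlapped the other, and the difference of −0.0584 had p = 0.333 by an exact two-sided permutation test, the smallest p that 2 against 2 libraries can give. Averages of 28S sites were 0.8212 ± 0.0003 with wild-type FBL and 0.9021 ± 0.0016 in control KD with empty vector (SD, n = 2 each). For 18S sites they were 0.7897 ± 0.0055 with wild-type FBL and 0.814 ± 0.0111 in control KD with empty vector (SD, n = 2 each). Scores of 0.9 or more were reached at 71 sites with wild-type FBL and at 88 sites in control KD with empty vector, and FBL KD cells with the empty vector had 36 such sites. The median score of a library differed by −0.0418 between the groups. Shifting every library by a constant to a common median left 13 sites lower and put 25 higher, and all 13 were among the 35. The median over sites was then 0.013. That setting removes by construction any shift that the sites share. It also moves sites near the upper bound of 1 by the same amount. Site 28S-4469, with a difference of −0.002, stood at 0.04 under it. The 25 higher calls are therefore no evidence of higher methylation with wild-type FBL.

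**Figure D1:**
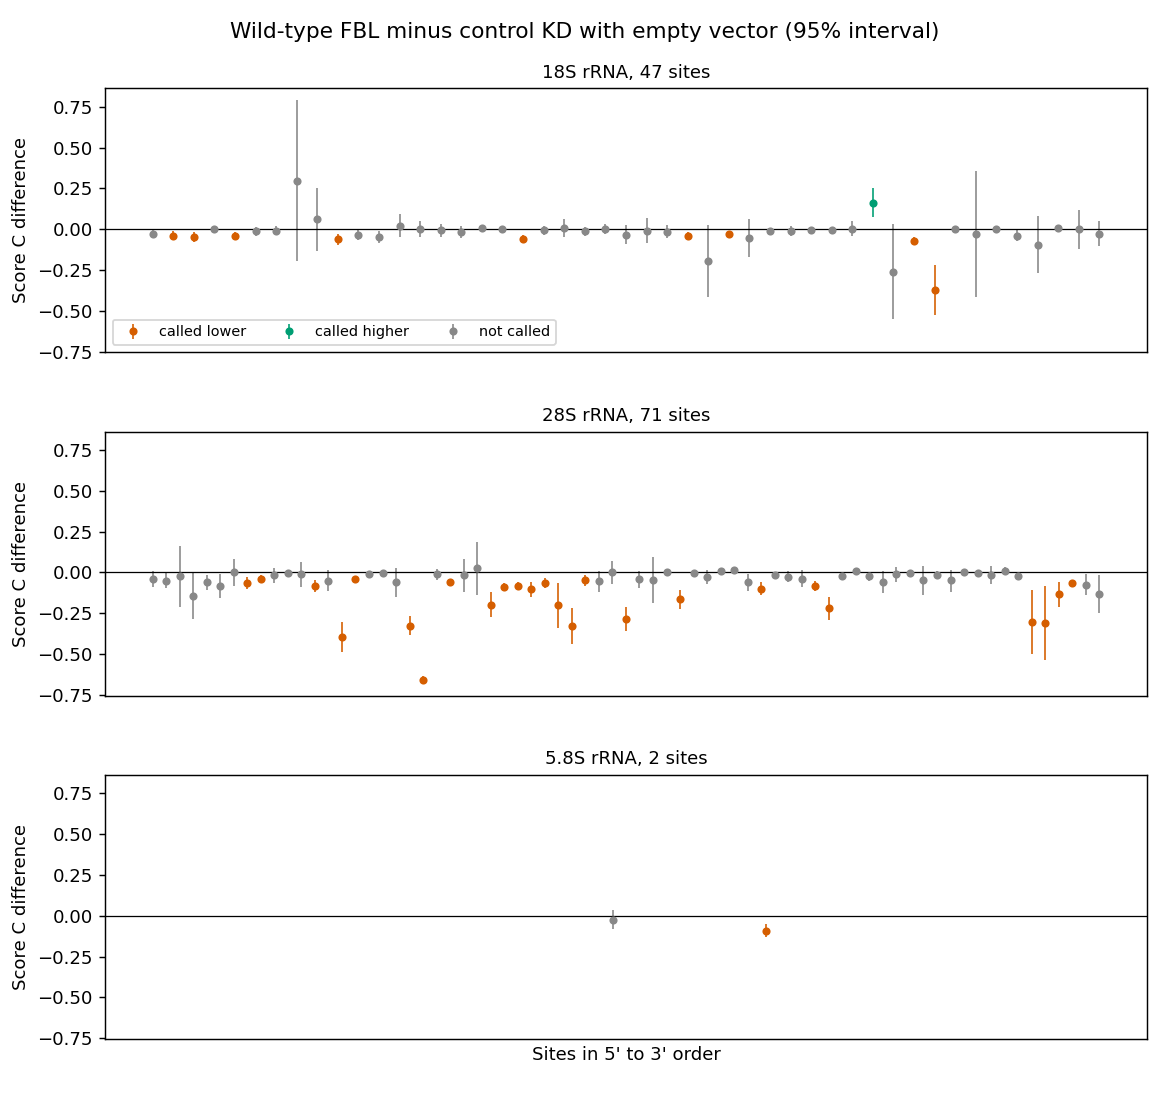
Difference in score C between FBL KD cells with wild-type FBL and control KD cells with empty vector at every site, in 5′ to 3′ order within 18S, 28S and 5.8S rRNA; points are limma estimates over 2 libraries a group, bars their 95% intervals, and colour gives the call. Most points lie just below 0, and the deepest called deficits, down to −0.657, are in 28S rRNA, while the widest intervals belong to sites whose control libraries disagree.

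The largest deficit was at 28S-2402, a site the authors list under SNORD143 and SNORD144. Its score was 0 in both libraries with wild-type FBL, against 0.652 and 0.662 in control KD with empty vector. In FBL KD cells with the empty vector it was also 0 in both libraries. The difference was −0.657 (SE 0.010, limma adjusted p = 8.44e-11). Scores below 0 had been set to 0 by the authors' formula, and here the bound hid part of the range. Without it the score averaged −0.271 ± 0.035 with wild-type FBL and 0.657 ± 0.007 in control KD with empty vector (SD, n = 2 each). FBL KD with the empty vector stood at −0.674 and −0.728 without it, below both libraries with wild-type FBL, at −0.247 and −0.296. On that scale wild-type FBL was higher than the empty vector by 0.43 (SE 0.054, limma adjusted p = 6.62e-05), which is 31.6% of the loss, where the deposited scores gave a rise of 0. The site had 25912 and 43656 ends with wild-type FBL beside flanking means of 20783 and 33690. Control KD with empty vector had 6591 and 6894 ends beside 18963 and 20388. The site was cut more often than its neighbours with wild-type FBL and less often in control cells. Control KD without a vector scored 0.466 and 0.460, lower than control KD with the empty vector, and against that group the deficit was −0.463. In 3 of the 4 libraries without a vector the most used position of all was 2401, inside the flanks of this site, and its part in their scores was not tested.

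At 4 further sites the score stood more than 0.3 below control with adjusted p under 0.005 and wild-type FBL had restored part of it. Site 28S-1868, guided by SNORD48 from an intron of SNHG32, scored 0.450 and 0.328 with wild-type FBL, against 0.781 and 0.789 in control KD with empty vector. The difference was −0.396 (SE 0.040, limma adjusted p = 0.000254), and FBL KD with the empty vector scored 0.022 and 0.074. The 3 groups did not overlap, and the regained share of the loss (the rise over the empty vector divided by the loss with it) was 46.2%. Site 28S-2863, guided by SNORD50A from the long non-coding host SNHG5, scored 0.453 and 0.364 with wild-type FBL, against 0.701 and 0.774 in control KD with empty vector (difference −0.329, SE 0.048, limma adjusted p = 0.00116). Site 28S-2388, guided by SNORD68 from an intron of RPL13, scored 0.579 and 0.606 with wild-type FBL, against 0.928 and 0.907 in control KD with empty vector. Its difference was −0.325 (SE 0.025, limma adjusted p = 4.13e-05), and of the 7 sites with a deficit of at least 0.3 it was the one at 0.9 or more in control cells. At 28S-2863 and 28S-2388 the empty vector left scores of 0.062 to 0.151, so that 51.0% and 59.1% of the loss was regained. These shares use the same control libraries as the differences and are no separate evidence.

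The 18S site 18S-1447, guided by SNORD127 from an intron of PRPF39, is the target of the guide that the study knocked out in other clones. It scored 0.316 and 0.279 with wild-type FBL, against 0.577 and 0.756 in control KD with empty vector. FBL KD cells with the empty vector scored 0.133 and 0.001. The groups did not overlap, the control libraries differed from each other by more than the other pairs, and 38.4% of the loss was regained. The difference was −0.369 (SE 0.067, limma adjusted p = 0.00304). The call was lost with the 4 libraries fitted alone (limma adjusted p = 0.0607) and on a logit scale (limma adjusted p = 0.204), and the adjusted p over all alternatives was between 0.00109 and 0.204.

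**Figure D2:**
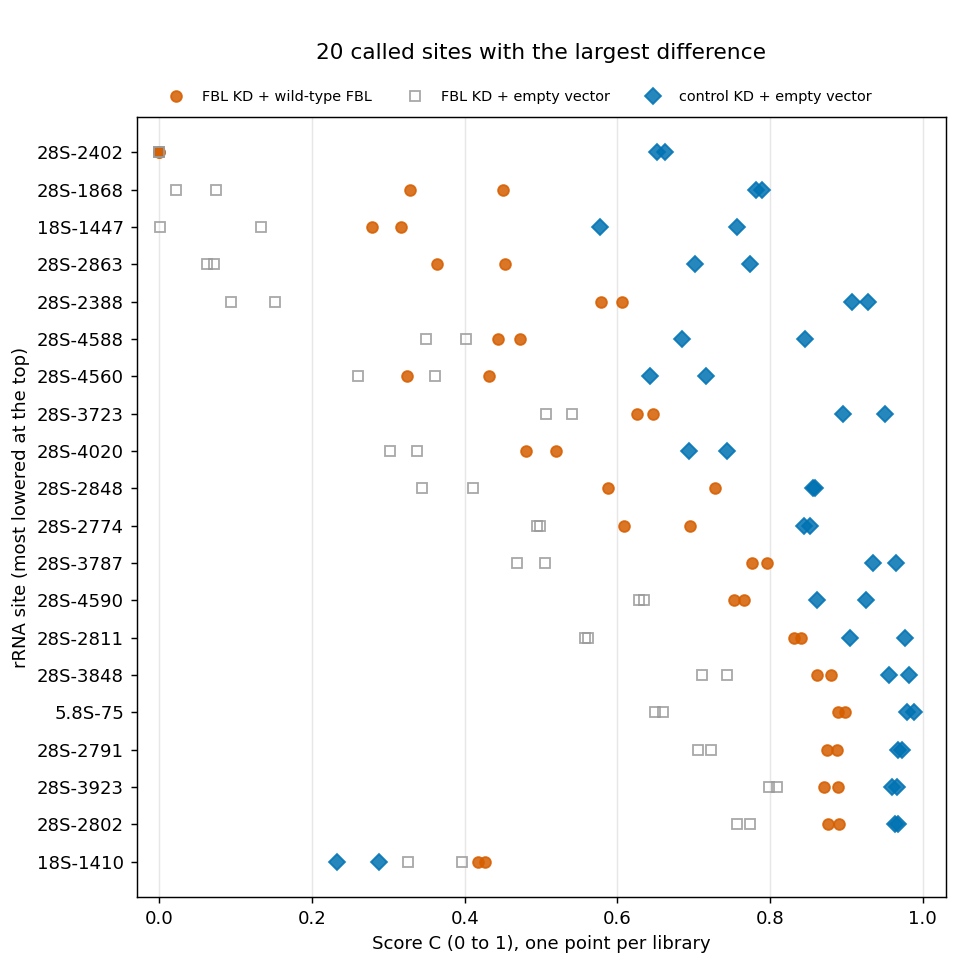
Score C in each library at the 20 called sites with the largest difference, with FBL KD plus wild-type FBL as filled circles, FBL KD plus empty vector as open squares and control KD plus empty vector as filled diamonds. In 19 of the rows the circles lie left of the diamonds, at 28S-2402 they lie on the squares at the floor of 0, and in the last row, 18S-1410, they lie to the right of the diamonds.

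Among the sites called lower, leaving aside 28S-2402 with its scores at the floor, the smallest shares of the loss were regained at 3 sites. Site 28S-4560, guided by SNORD119 from SNRPB, scored 0.324 and 0.432 with wild-type FBL, against 0.716 and 0.643 in control KD with empty vector, and the empty vector in FBL KD cells gave 0.260 and 0.361. Its deficit was −0.302 (SE 0.085, limma adjusted p = 0.0274) and its regained share 18.3%, a rise over the empty vector that was not called. Site 28S-4588, listed under SNORD91A and SNORD91B from TSR1, scored 0.443 and 0.472 with wild-type FBL, against 0.685 and 0.845 in control KD with empty vector, where the FBL KD empty vector libraries had 0.349 and 0.401. Its deficit was −0.308 (SE 0.099, limma adjusted p = 0.0462), with 21.1% regained, again not called over the empty vector. Both calls were fragile: the first was lost under 4 of 17 alternatives and the second under 10 of 17, and neither site is counted as lost in the separate knockdown without a vector described further on. Site 28S-3723, guided by SNORD87 from SNHG6, gave a firmer value. It scored 0.625 and 0.647 with wild-type FBL, against 0.895 and 0.950 in control KD with empty vector, a difference of −0.286 (SE 0.032, limma adjusted p = 0.000398). Here 28.4% of the loss was regained, and the call held under every alternative run.

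Between −0.22 and −0.13 lay 5 more called 28S sites. 28S-4020 (SNORD102, RPL21) scored 0.519 and 0.480 with wild-type FBL, against 0.743 and 0.694 in control KD with empty vector. 28S-2774 (SNORD99, SNHG12) scored 0.608 and 0.695 with wild-type FBL, against 0.844 and 0.852 in control KD with empty vector. 28S-3787 (SNORD10, EIF4A1) scored 0.776 and 0.796 with wild-type FBL, against 0.935 and 0.965 in control KD with empty vector. The last of these kept its call under every alternative run, and the other 2 lost theirs with the 4 libraries fitted alone. 28S-2848, the second SNORD50A site, scored 0.728 and 0.587 with wild-type FBL, against 0.859 and 0.856 in control KD with empty vector. Its difference of −0.200 (limma adjusted p = 0.035) was −0.13 with an adjusted p of 0.212 by limma when replicate 2 of wild-type FBL was left out. 28S-4590 (SNORD72, RPL37) scored 0.766 and 0.753 with wild-type FBL, against 0.861 and 0.926 in control KD with empty vector, and its difference of −0.134 (limma adjusted p = 0.0149) lost its call under 5 of 17 alternatives.

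Many of the called sites were nearly fully methylated in control cells, and there a small fall in score was a large relative rise in ends. Of the 35 sites 25 averaged 0.9 or more in control KD with empty vector and 13 did so with wild-type FBL. Over all 120 sites the counts were 88 and 71, so in control cells the called sites were near the rate of all sites. At 28S-1747, guided by SNORD73A from RPS3A, the score averaged 0.911 ± 0.006 with wild-type FBL and 0.992 ± 0.005 in control KD with empty vector (SD, n = 2 each). Behind them stood 629 and 569 ends with wild-type FBL, beside flanking means of 7439 and 6116, against 31 and 22 ends beside 6420 and 1903 in control KD with empty vector. Ends relative to their flanks were 12.4-fold higher (edgeR quasi-likelihood test, adjusted p = 1.78e-06), while the score differed by −0.081 (SE 0.016, limma adjusted p = 0.00555). At 18S-1031, listed under SNORD59A and SNORD59B, the scores were 0.966 and 0.971 with wild-type FBL, against 0.997 and 0.999 in control KD with empty vector. This was the smallest called deficit, −0.029 (SE 0.005, limma adjusted p = 0.00197), and ends were 16-fold higher (edgeR adjusted p = 6.43e-07). At 28S-2411, guided by SNORD6, the score averaged 0.936 ± 0.004 with wild-type FBL and 0.994 ± 0.001 in control KD with empty vector (SD, n = 2 each), and ends were 10.7-fold higher (edgeR adjusted p = 2.31e-09). None of these 3 sites overlapped between groups. Each lost its call only when library medians were made equal, of the alternatives run.

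The 5.8S site 5.8S-75, listed under SNORD96A and SNORD96B, belonged to the same class. It scored 0.889 and 0.898 with wild-type FBL, against 0.979 and 0.989 in control KD with empty vector (difference −0.091, SE 0.016, limma adjusted p = 0.00304). The other 5.8S site, 5.8S-14 under SNORD71, scored 0.831 and 0.820 with wild-type FBL, against 0.808 and 0.894 in control KD with empty vector. Its groups overlapped and it was not called.

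Further called sites that were above 0.8 in control cells included these. Site 28S-3848, guided by SNORD53 from WDR43, scored 0.861 and 0.880 with wild-type FBL, against 0.956 and 0.982 in control KD with empty vector. Site 28S-3923, listed under SNORD111 and SNORD111B from SF3B3, scored 0.871 and 0.889 with wild-type FBL, against 0.960 and 0.966 in control KD with empty vector. Both pairs of groups were clear of each other, and the first kept its call under every alternative run. In 18S rRNA the site 18S-1442, guided by SNORD61 from RBMX and 5 nucleotides before the SNORD127 target, scored 0.890 and 0.903 with wild-type FBL, against 0.962 and 0.976 in control KD with empty vector. Each of these 2 sites lies in the flanks of the other, and the part of one in the score of the other was not tested. Also called lower were 28S-1509 (SNORD2, −0.064), 28S-3680 (SNORD88A, SNORD88B and SNORD88C, −0.048), 18S-159 (SNORD45A and SNORD45C, −0.044) and 18S-867 (SNORD98, −0.042). The call at 28S-3680 was lost with any 1 of the 4 libraries left out, and the other 3 lost theirs under 4 of 17 alternatives each.

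Tested on end counts relative to flanks, 52 sites (43.3%) had more ends with wild-type FBL and 0 had fewer at an edgeR adjusted p under 0.05, nor did any have fewer at an unadjusted p under 0.05. Of the 35 sites called by score 34 were among them, and 18S-99 was not (1.43-fold, edgeR adjusted p = 0.142). The test treats the flanking mean as known, so its p-values leave out the error of the flanks. The 18 sites called on this scale alone included 18S-683, listed under SNORD19 and SNORD19B. It had 6 and 14 ends with wild-type FBL, against 0 and 0 in control KD with empty vector. Set against a floor of 3 ends over the 2 control libraries, ends were at least 6.27-fold higher (edgeR adjusted p = 0.0022), and on the score scale the difference was −0.033 (SE 0.026, limma adjusted p = 0.373). Also called on this scale alone was 28S-1313, listed under SNORD18A, SNORD18B and SNORD18C from RPL4 (4.30-fold, edgeR adjusted p = 3.71e-05).

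Sites were also grouped by their score in the SNORD127 control clone, a single library outside the fit. Of 10 sites under 0.5 there, 1 was lower and 1 higher. Of 21 sites between 0.5 and 0.9, 10 were lower (47.6%), with a median difference of −0.134. Of 31 sites between 0.9 and 0.97, 11 were lower (35.5%), with a median of −0.047, and of 58 sites at 0.97 or more, 13 were lower (22.4%), with a median of −0.013. The medians of the end counts ran in another order. Their median log2 ratio was 0.11, 0.83, 0.85 and 1.01 in the 4 bins, lowest bin first. In the same order edgeR called 1 of 10, 11 of 21, 15 of 31 and 25 of 58 sites. The order of the bin medians thus differed between the score and the end count scale. The share of sites called was largest between 0.5 and 0.9 on both scales.

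**Figure D3:**
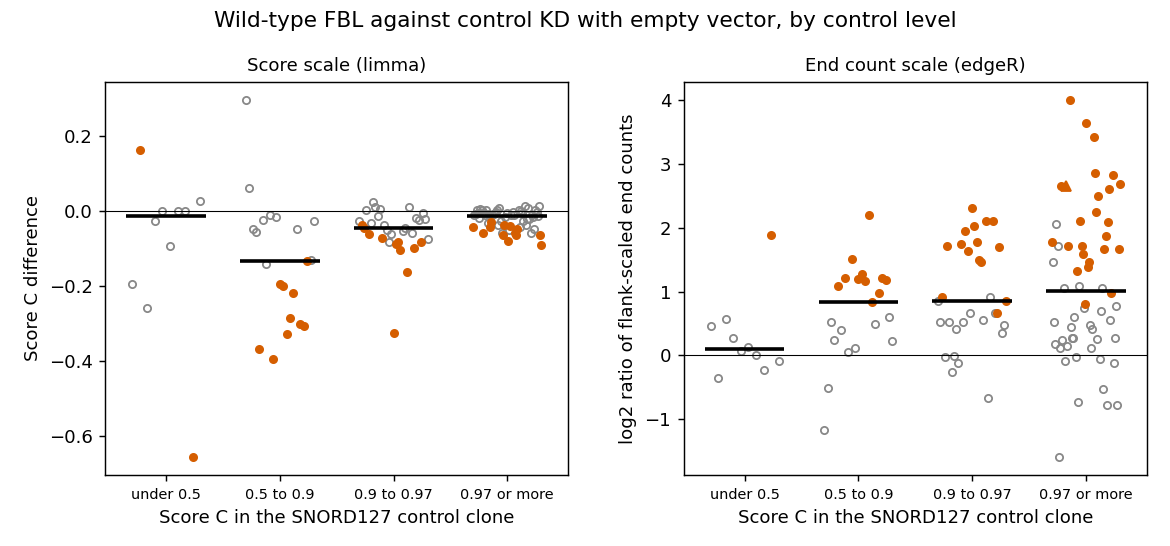
Each site's change with wild-type FBL relative to control KD with empty vector, by its score C in the SNORD127 control clone, as a score difference (left, limma) and as a log2 ratio of end counts scaled to their flanks (right, edgeR). Filled points passed the test, bars are medians, and the triangle is 18S-683, drawn at its lower bound of 2.65; the score medians approach 0 at the highest level, −0.013, while the end count medians reach 1.01 there.

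By position the sites called by score were densest in the middle of 28S rRNA. In 28S rRNA 25 of 71 sites were lower (35.2%, median difference −0.048), and in 18S rRNA 9 of 47 (19.1%, median −0.011), beside 29.2% and −0.028 over all sites. In the stretch that runs from 28S-2338 to 28S-2863, 11 of 17 sites were lower (64.7%, median −0.065). The run held 28S-2338 and 28S-2388 at its 5′ end, 28S-2402, 28S-2411 and 28S-2774, and then 6 sites in a row: 28S-2791 (SNORD55), 28S-2802 and 28S-2811 (SNORD95, RACK1), 28S-2824 (SNORD34, RPL13A), 28S-2848 and 28S-2863 (SNORD50A). The 6 uncalled sites of the stretch had differences between −0.061 and 0.026, and 2 of them, 28S-2350 and 28S-2352, were called lower when replicate 2 of control KD with empty vector was left out. Elsewhere in 28S rRNA the counts were 4 of 15 sites up to 28S-1868, 6 of 20 from 28S-3680 to 28S-4032, and 4 of 19 from 28S-4166 on. Median differences in these stretches were −0.05, −0.041 and −0.023. In FBL KD with empty vector the median loss against control was −0.229, −0.231, −0.146 and −0.083 in the 4 stretches of 28S rRNA, in 5′ to 3′ order. The first 2 stretches thus had close median deficits and losses, while 26.7% and 64.7% of their sites were called. In 18S rRNA they were 5 of 23 up to 18S-668 and 4 of 24 from 18S-683 on. End counts gave another picture for the 4 stretches of 28S rRNA, in 5′ to 3′ order. There edgeR called 10 of 15, 11 of 17, 11 of 20 and 9 of 19 sites, beside 43.3% of all sites. On that scale the middle stretch did not stand out from the first. In the 2 stretches of 18S rRNA edgeR called 4 of 23 and 6 of 24 sites. With library medians made equal the median was 0.03 for 18S, −0.006 for 28S and −0.023 for the stretch from 28S-2338 to 28S-2863, so only the 18S median changed sign among these 3.

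**Figure D4:**
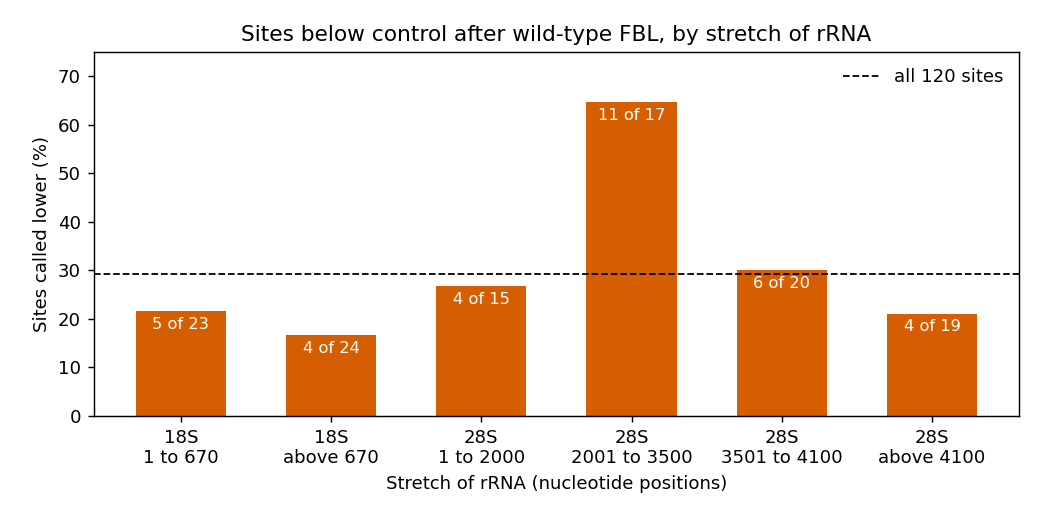
Share of sites called lower by limma on score C with wild-type FBL than in control KD with empty vector. The 6 stretches of rRNA are in 5′ to 3′ order, and the label in each bar gives called of all sites there. The second of the 4 stretches of 28S rRNA reaches 64.7%, and the dashed line marks the 29.2% of all 120 sites.

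Sites near the peptidyl transferase centre of 28S rRNA, from 28S-4197 to 28S-4506, were not called by limma in any of 11 cases, and 0 were lower at an unadjusted p under 0.05. Their median difference was −0.014, and 0.028 with library medians made equal. In FBL KD with empty vector their median loss against control was −0.052, beside −0.084 over all sites. The intervals there were of unequal width. At 28S-4340 (SNORD60) the 95% interval ran between −0.014 and 0.001, and at 28S-4468 (SNORD62A and SNORD62B) between −0.005 and 0.006. At 28S-4198, under 3 copies of SNORD58, it ran between −0.126 and 0.010, which leaves room for a sizeable deficit. That site scored 0.936 and 0.927 with wild-type FBL, against 0.986 and 0.992 in control KD with empty vector. On end counts edgeR called 4 of these 11 sites, 28S-4198 among them (6.1-fold, edgeR adjusted p = 3.71e-05). Over all sites the shares were 29.2% by limma and 43.3% by edgeR. Site 28S-4469, which has no listed guide, scored 0.990 and 0.992 with wild-type FBL, against 0.992 and 0.993 in control KD with empty vector, a difference of −0.002 (95% interval −0.014 to 0.011).

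By guide, 25 of 73 sites with 1 listed guide were lower (34.2%) and 10 of 31 sites with 2 or more (32.3%), close to each other and to the rate over all sites. Of 16 sites with only a predicted guide or none, 0 were lower by limma and by edgeR, 1 was lower at an unadjusted limma p under 0.05, and the 1 site called higher was among them. Those 16 also had low scores, with a mean of 0.397 with wild-type FBL and 0.429 in control KD with empty vector. Their median loss in FBL KD with empty vector was −0.006, beside −0.084 over all sites, so there was little loss to regain. Host genes are set beside the same shares over all sites, 29.2% by limma and 43.3% by edgeR. Among guides from GAS5 introns 1 of 10 sites was lower by limma and 4 by edgeR, the first 28S-4593 under SNORD78, with 0.899 and 0.911 with wild-type FBL, against 0.969 and 0.971 in control KD with empty vector. Among those from SNHG1 introns 0 of 8 were lower by limma, also at an unadjusted p under 0.05, and by edgeR, with a median of −0.009 that became 0.032 with library medians made equal. Against control KD without a vector, 5 of these 8 sites were lower, beside 51.7% of all sites, and 4 of the 10 GAS5 sites. Of 5 sites of RPL13A guides 2 were lower by limma and by edgeR, 28S-2824 at −0.065 and 28S-1511 at −0.037. Of 2 sites of RPL23A guides 1 was lower by limma and by edgeR, 18S-116 at −0.047, and of 2 sites of RPL4 guides 0 were by limma, 1 at an unadjusted p under 0.05 and 1 by edgeR. Median losses in FBL KD with empty vector were −0.062 for GAS5, −0.03 for SNHG1, −0.042 for RPL13A, −0.05 for RPL23A and −0.239 for RPL4. Sites with another listed site inside 6 nucleotides, whose flanks it enters, were lower in 10 of 44 cases (22.7%), and those without one in 25 of 76 (32.9%).

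The same guide can serve a pair of sites, which share its supply. There were 12 such sets of guide and sites, some of them for near-identical guide copies with the same sites. In 3 sets both sites were lower by limma, in 5 sets 1 of them, and in 4 sets neither, beside 29.2% of all sites. Of the sets with neither, edgeR called both SNORD58 sites on end counts and 28S-1612 alone for SNORD80. It called no site of SNORD15A or SNORD30. SNORD68 guides both 28S-2388, at −0.325, and 18S-428, which scored 0.924 and 0.902 with wild-type FBL, against 0.968 and 0.980 in control KD with empty vector (difference −0.061, SE 0.015, limma adjusted p = 0.0149). SNORD95 had −0.083 at 28S-2802 and −0.104 at 28S-2811, and SNORD50A had −0.200 at 28S-2848 and −0.329 at 28S-2863. SNORD62A and SNORD62B had −0.059 at 18S-590 (SE 0.011, limma adjusted p = 0.00442), while 28S-4468 stood at 0.001 (95% interval −0.005 to 0.006). The site 28S-4468 had not been lowered by the knockdown, with 0.994 and 0.998 in FBL KD with empty vector, where 18S-590 had 0.866 and 0.877. The difference between these sites was not tested.

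A site that was not called need not be equal to control. At 36 of 120 sites (30.0%) the 95% interval lay wholly within 0.05 score units of 0, at 19 of 47 in 18S (40.4%) and 17 of 71 in 28S rRNA (23.9%). One of the 36, 18S-1031, was also called lower, and another, 18S-1668, had scores at 0. Of these 36, 28 also met the rule without replicate 2 of control KD with empty vector, and 9 were called lower against the other 3 control libraries by limma. Some of the 36 had lost methylation with the empty vector. At 28S-2409, guided by SNORD5, the scores were 0.953 and 0.953 with wild-type FBL, against 0.988 and 0.942 in control KD with empty vector. FBL KD with the empty vector gave 0.825 and 0.818 there, and the 95% interval against control was −0.046 to 0.023. At 28S-2350, guided by SNORD76 from GAS5, they were 0.958 and 0.962 with wild-type FBL, against 0.983 and 0.959 in control KD with empty vector, where FBL KD with the empty vector had 0.876 and 0.873. Both sites stood clear of the knockdown libraries, and their overlap with control rested on replicate 2 of control KD with empty vector. Both wild-type FBL libraries lay below the other 3 control libraries at each. Without that replicate the difference was −0.035 at 28S-2409 (limma adjusted p = 0.0908) and −0.023 at 28S-2350 (limma adjusted p = 0.0144). Against those 3 control libraries both were lower, with limma adjusted p = 0.0241 at 28S-2409 and 0.000842 at 28S-2350.

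The largest called gain over the empty vector at a site not called against control was at 28S-1313. It scored 0.925 and 0.919 with wild-type FBL, against 0.571 and 0.510 in FBL KD with empty vector and 0.984 and 0.980 in control KD with empty vector. The loss was regained to 86.4%, and the remaining difference was −0.060 (95% interval −0.107 to −0.013, limma adjusted p = 0.0589). At 28S-1327, guided by SNORD104, the scores were 0.871 and 0.874 with wild-type FBL, against 0.943 and 0.971 in control KD with empty vector. Its difference was −0.084 (95% interval −0.156 to −0.012, limma adjusted p = 0.0788). At both sites wild-type FBL lay below the control libraries without overlap, although neither passed the threshold over 120 sites. The other 8 of the 10 largest called gains at such sites were at 28S-3697, 28S-1858, 28S-3739, 28S-389, 28S-2352, 28S-4198, 28S-3703 and 28S-391, with differences against control between −0.061 and 0.001. At all but 28S-2352 and 28S-3703 both wild-type FBL libraries lay below all 4 control KD libraries. On end counts edgeR called 28S-3697, 28S-1858, 28S-3739, 28S-4198 and 28S-391, but not 28S-389, 28S-2352 or 28S-3703. The differences at 28S-2352 and 28S-3703 turned on replicate 2 of control KD with empty vector. Without it they had −0.128 (limma adjusted p = 0.0176) and −0.053 (limma adjusted p = 0.142).

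Set side by side, the comparisons that share libraries with this one gave these counts. FBL KD against control KD, both with empty vector, had 81 of 120 sites lower (67.5%) and 1 higher. Wild-type FBL against the empty vector in FBL KD cells had 69 sites higher (57.5%) and 1 lower, and both libraries with wild-type FBL lay above both with the empty vector at 90 sites (75%). Against control KD without a vector, wild-type FBL had 62 sites lower (51.7%) and 0 higher by limma, also at an unadjusted p under 0.05, and against all 4 control KD libraries 52 lower (43.3%). The control without a vector had a mean score of 0.8858 ± 0.0022, above the 0.8678 ± 0.0059 of control KD with empty vector (SD, n = 2 each). Its 2 libraries were shallower. Of the 35 sites 33 were also lower against that control, and the 2 that were not called there were 18S-428 (−0.030, limma adjusted p = 0.127) and 28S-4588 (−0.241, limma adjusted p = 0.0716). Both wild-type FBL libraries lay below all 4 control libraries at 67 sites (55.8%), the 35 among them. Over the 4 control libraries the difference in mean score was −0.0673, with p = 0.0667 by an exact two-sided permutation test, the smallest that 2 against 4 libraries can give.

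FBL KD against control KD without a vector shares no library with this comparison and had 71 sites lower (59.2%) and 2 higher (1.67%). The column names call its knockdown libraries shFBL1 and shFBL2 and those with a vector shFBL4. Whether these are different hairpins is not stated, so its 2 libraries may not be replicates of 1 hairpin, nor use the hairpin of the cells compared here. Over all 120 sites its differences and the deficits after wild-type FBL had a Pearson r of 0.55 and a Spearman rho of 0.49, a description over sites that share libraries and depth. Of the 71 sites that fell in that knockdown, 31 were lower here (43.7% of those that fell, 88.6% of those lower here), with a median difference of −0.046. Of the 49 others 4 were lower (8.16%), with a median of −0.014: 18S-99, 18S-428, 28S-4560 and 28S-4588. Both sets of calls come from the same fit with the same spread per site. A site with a small spread is called more readily in both, so the shares of calls are not independent. The separate knockdown moved 28S-4560 by −0.010 (limma adjusted p = 0.977) and 28S-4588 by −0.201 (limma adjusted p = 0.115). At 28S-2402 it had −0.463, at 28S-1868 −0.661 and at 18S-1447 −0.421. At 20 of the 71 fallen sites (28.2%) the interval after wild-type FBL lay within 0.05 of control, near the 36 of all 120 sites (30.0%).

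The site called higher with wild-type FBL was 18S-1410, which has only a predicted guide or none. It scored 0.417 and 0.427 with wild-type FBL, against 0.288 and 0.233 in control KD with empty vector, a difference of 0.162 (SE 0.039, limma adjusted p = 0.0129). FBL KD with the empty vector scored 0.325 and 0.396, and control KD without a vector scored 0.505 and 0.449. Against that control without a vector the difference was −0.055, below 0 and not called, and the call was lost under 8 of 15 alternatives.

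The 3 largest differences that were not called rested on the control library with 20.79% of its ends at 1 position. At 18S-174, guided by SNORD45C, wild-type FBL scored 0.699 and 0.718, against 0.825 and 0 in control KD with empty vector. The difference was 0.296 (95% interval −0.196 to 0.788), and −0.116 without the library at 0. At 18S-1441 wild-type FBL scored 0 and 0, against 0 and 0.518 in control KD with empty vector. At 18S-936 it scored 0 and 0, against 0 and 0.390 in control KD with empty vector. Control KD without a vector scored 0 and 0 at 18S-1441 and 0.029 and 0 at 18S-936. In each of these 3 cases replicate 2 of control KD with empty vector was the library that differed from its pair. Leaving that library out and using the other 3 control libraries as reference gave 51 sites lower. The next largest was 28S-1303, guided by SNORD21, with 0.778 and 0.733 for wild-type FBL, against 0.885 and 0.908 in control KD with empty vector. Its groups did not overlap, its difference was −0.141 (limma adjusted p = 0.141), and it was called on end counts (2.33-fold, edgeR adjusted p = 0.00159). Control KD without a vector scored 0.848 and 0.745 at 28S-1303, which overlapped wild-type FBL. Against that control the difference was −0.041 (limma adjusted p = 0.599). At 28S-4937, which has only a predicted guide or none, wild-type FBL scored 0.596 and 0.638, against 0.663 and 0.832 in control KD with empty vector (difference −0.130, limma adjusted p = 0.0858). This difference also leaned on replicate 2 of control KD with empty vector. It was −0.046 without that library and −0.014 against the other 3 control libraries.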

How the data were processed

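Ribose methylation was measured by RiboMethSeq in 19 Kasumi-1 libraries. Per the labels' protocols, alkali at 95 °C cut 100 ng of total RNA during 12 min into fragments near 30 nucleotides. Per the submitters' processing notes, cutadapt and Bowtie2 were used; the sources used here do not name versions, settings or reference. End counts were deposited by the authors at 7000 rRNA positions, as whole numbers without normalization. They also deposited score C for 120 sites as a fraction from 0 to 1. Recomputed from the counts, all 2280 of 2280 scores matched within 1e-09, with the ends read 1 position after the site, weights falling from 1 to 0.5 and negative values set to 0 (117 scores).

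Groups followed the sample titles. Score C was fitted with limma 3.58.1 (R 4.3.3) over the 14 knockdown libraries in 7 groups, with a trend of variance on level. Tests were two-sided, with a Benjamini-Hochberg threshold of 0.05 over the 120 sites. End counts were tested with edgeR 4.0.16 with the log flanking mean as offset. Both steps were also run on simulated counts. That simulation held the flanking means fixed and had no library that stood apart, so it does not show how the tests behave on these data. Counting intervals of 95% used a Poisson delta method and cover counting error only, as the reads carry no molecular identifiers. Replicate pairs differed by 17.9 to 699.8 chi-square units per position, so none agreed within sampling noise. Python 3.11.15, numpy 2.4.6, pandas 2.3.3 and matplotlib 3.10.9 were used. Host genes came from the RefSeq gene table, in which 126 of 127 guides matched.

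Named sites are the 20 largest called differences, sites called higher, 18S-1447 and 28S-4469, the 10 largest called gains over the empty vector at sites not called against control, the 6 smallest called and 6 largest uncalled differences, and leading members of each list. Sites outside this rule (5.8S-14, 18S-683, 28S-2409, 28S-2350, 28S-4340 and 28S-4468) were chosen after their values were seen. The sites, lists and tests were chosen with earlier results of these data known. Alternatives were fits of the compared groups alone, no trend, a logit scale, scores not set to 0, flanks of 2 positions, dropping the 10% of sites with fewest flanking ends, equal library medians, a replicate block, each library left out, predicted guides left out, edgeR, and other control libraries as reference. The reference of 3 control libraries was added after seeing the data. Same-numbered replicates were not treated as pairs.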

Additional observations from a re-analysis of the deposited data

How the results depend on the processing

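The count of 35 lower sites was 32 to 50 with the compared groups alone, no trend, a logit scale, scores not set to 0, flanks of 2 positions, low counts left out or predicted guides left out, and 52 by edgeR and against all 4 control libraries. It was 13 with equal library medians, 62 against control KD without a vector, and 25 to 32 with a library left out, the lowest without replicate 1 of wild-type FBL. In every fit with a library left out 22 of the 35 kept their call, as did 22 with the groups alone. Under every alternative run 9 sites kept theirs: 28S-1868, 28S-2388, 28S-2402, 28S-2791, 28S-2802, 28S-2863, 28S-3723, 28S-3787 and 28S-3848. The single higher call became 2 with scores not set to 0 and 25 with equal medians. It became 0 with flanks of 2 positions, low counts left out, predicted guides left out, edgeR, and each other reference, and 0 to 2 with a library left out. The cause was not tested. With the replicate block 32 sites were lower and 1 higher. Same-numbered libraries of the compared groups deviated together with r = 0.068 (all pairs of groups −0.226 to 0.694). The highest were 0.694 for wild-type FBL with 1 of the FBL mutants and 0.526 for the other mutant with control KD with empty vector. These values do not settle whether equal numbers mark a shared batch.

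The 36 sites inside 0.05 became 20 with equal medians and 28 to 32 with a library left out. The mean difference became −0.0648 with low counts left out, −0.0763 against control KD without a vector and −0.0673 against all 4, and was −0.0625 to −0.0542 with a library left out. With equal medians the counts in the comparisons set side by side became 34 (FBL KD with empty vector, lower), 20 (wild-type FBL over empty vector, higher), 15 (wild-type FBL against control without a vector, lower) and 28 (FBL KD without a vector, lower).

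Over all 120 sites, 46 signs turned with equal medians, which shifts every site alike, 24 against control KD without a vector, 18 against the 3 control libraries and 16 against all 4. Among the named sites, equal medians turned 18S-1031 (0.013), 18S-99 (0.003), 28S-1511 (0.005), 28S-2338 (0.002), 28S-389 (0.003), 28S-4469 (0.04), 18S-683 (0.009), 28S-2350 (0.031), 28S-2409 (0.03), 28S-4340 (0.035) and 5.8S-14 (0.016). Control KD without a vector turned 18S-1410 (−0.055), 18S-1680 (0.004), 18S-174 (−0.223), 28S-3703 (−0.058), 28S-4469 (0.008), 28S-4937 (0.017) and 28S-4468 (−0.008). The 3 control libraries turned 18S-1680 (0.002), 18S-174 (−0.17), 28S-3703 (−0.055), 28S-4469 (0.004) and 28S-4468 (−0.003), and all 4 turned 28S-3703 (−0.028), 28S-4469 (0.003) and 28S-4468 (−0.003). At 28S-3703 the logit scale gave −0.527 and edgeR −0.26, and flanks of 2 positions gave 0.004 at 28S-4469 and 0.011 at 5.8S-14. With a library left out, 18S-174 ran from −0.116 to 0.708, 28S-2352 from −0.128 to 0.006, 28S-3703 from −0.053 to 0.055, 28S-2350 from −0.023 to 0.001, 28S-2409 from −0.035 to 0.011, 28S-4468 from −0.001 to 0.002 and 5.8S-14 from −0.068 to 0.017. Lists by methylated base were not run, since the files used here do not give the base. Depth limits sites with few flanking ends, where the counting half-width reached 0.366.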
